A study of Mus musculus with 4 samples.

Results

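Progenitor.1 is the class of cycling epithelial progenitors in single-cell RNA-seq of mouse colonic organoids (colonoids), which are gel cultures started from pieces of the distal colon. Its members are the cells that carry the annotation Progenitor.1 in the deposited cell table, a name from the authors' own clustering. They numbered 1623 of 6155 cells (26.4%) and were drawn from 7 epithelial classes with 4172 cells in all. Donors were 16 weeks old per the labels. They were either wildtype (C57BL/6 per the study's methods) or Tnfr2-/- (B6.129S2-Tnfrsf1b tm1Mwm/J), a germline deletion of TNF receptor 2 in every cell of the mouse. After passage 5, cultures received either vehicle, called untreated here, or tumor necrosis factor (TNF) at 20 ng/ml. TNF was given between days 1 and 6 of that passage, and all cultures were dissociated at day 7 and depleted of apoptotic cells. The labels do not say how many mice were used or whether they were pooled. For its organoid cultures the study's methods give a younger age, both sexes and several mice per genotype in each experiment. Whether that holds for these libraries is not stated. Each of the 4 groups had 1 library, so nothing was tested between groups, and every difference is between single cultures. Runs of 4 values give wildtype first, untreated before TNF, and then Tnfr2-/- likewise.

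The base of the colonic crypt holds dividing stem cells that carry Lgr5, a receptor for R-spondins that strengthens Wnt signals. Their daughters divide several more times before they become absorptive or secretory cells. Division is visible in RNA because genes of DNA synthesis are switched on in S phase and genes of the spindle and of chromosome segregation in G2 and mitosis. TNF acts through the receptors TNFR1 and TNFR2, and both can activate the transcription factor NF-kB.

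Progenitor.1 had 546, 335, 647 and 95 cells, with sums of 27632985, 18261918, 36728642 and 5128068 unique molecular identifiers (UMIs, each 1 counted RNA molecule). The median cell held 42680 to 46629 UMIs, a narrow range across libraries. Median mitochondrial shares were 2.92%, 3.83%, 4.56% and 5.75%, lowest in untreated wildtype. Scrublet called 1 Progenitor.1 cell a doublet, and 1 of the 3 cell barcodes shared between libraries was on a Progenitor.1 cell. The wildtype libraries mixed cells with X- and Y-linked marks: 93.8% and 80.0% of Progenitor.1 cells held Xist, the RNA of the inactive X chromosome, and no Y-linked UMI, while 3.30% and 15.5% held the reverse. In Tnfr2-/- 99.1% and 100% of cells held neither. The share of UMIs from chromosome 19 had medians of 3.08%, 3.17%, 4.58% and 4.78%, higher in both Tnfr2-/- libraries. These traits separate the genotypes, so their part in any genotype difference cannot be told apart from that of Tnfr2.

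The targeted gene Tnfrsf1b (chromosome 4, 145213463 to 145246870, minus strand, GRCm38) encodes TNFR2. In Progenitor.1 138, 220, 36 and 11 UMIs were counted. These are 4.99 (4.20 to 5.90) and 12 (10.5 to 13.7) counts for each 1000000 UMIs of the class (CPM) in wildtype, against 0.98 (0.686 to 1.36) and 2.15 (1.07 to 3.84) in Tnfr2-/-. Parentheses beside CPM hold exact Poisson 95% intervals and those beside shares of cells hold exact Clopper-Pearson ones, and both cover counting error only. It was lower in both Tnfr2-/- libraries but not absent. Which stretch the allele lacks is unknown here, so reads near the 3' end check nothing about the knockout. Tnfrsf1a, the gene of TNFR1, stood at 29.5, 26.3, 32.1 and 22.8 CPM.

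The name of the class held against its markers, with limits. Top2a, the topoisomerase that untangles replicated DNA, had 147 (143 to 152), 185 (179 to 191), 217 (213 to 222) and 291 (276 to 306) CPM. Mki67, a protein that coats mitotic chromosomes, had 174, 225, 200 and 225 CPM, and the centromere protein gene Cenpf had 97.9, 115, 121 and 136 CPM. Ube2c, an enzyme that marks mitotic cyclins for destruction, had 226, 171, 341 and 496 CPM, lowest in wildtype TNF and highest in Tnfr2-/- TNF. Progenitor.2, another class called a progenitor, had 1.79, 9.78, 4.14 and 7.82 CPM of Mki67, far under Progenitor.1 in every library. A limit is Progenitor.3, which carried some of the cycle markers at similar levels in the 3 libraries where it had at least 20 cells (all but Tnfr2-/- TNF). Its Ube2c was 363, 439 and 309 CPM, above Progenitor.1 in wildtype, and its Top2a was 112, 184 and 132 CPM. Its Mki67 was lower, at 83.8, 132 and 33.9 CPM, as was its Cenpf, at 42.3, 80.7 and 26.4 CPM. Another limit lies in the secretory classes. Secretory-Reg4-Ang4, which had cells only in wildtype TNF, had 147, 124 and 92.2 CPM of Top2a, Mki67 and Cenpf, under Progenitor.1 there. Secretory-Reg4-Spdef-Lyz1 had Mki67 at 57.1, 90.2 and 22.6 CPM in the same 3 libraries. Lgr5 stood at 42.7, 65.9, 68.0 and 121 CPM in Progenitor.1 and at 11.6, 18.7 and 28.3 CPM in Progenitor.3. Smoc2, a secreted protein of crypt base cells, had 86.7, 114, 96.8 and 152 CPM in Progenitor.1, and only the Secretory-Reg4-Spdef-Lyz1 class in untreated Tnfr2-/- reached more, at 140 CPM.

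**Figure D1:**
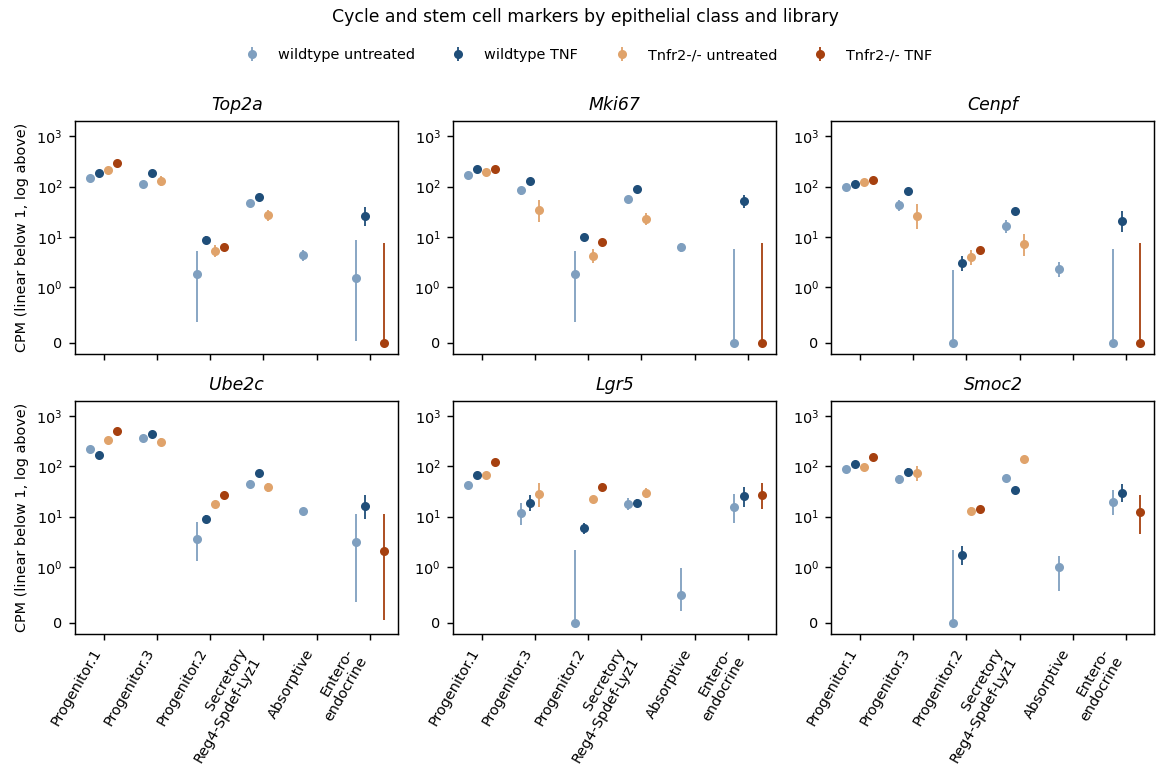
CPM of 6 marker genes (vertical axis, linear below 1 and logarithmic above) in epithelial classes with at least 20 cells, 1 point per library with its Poisson interval. Progenitor.3 has Top2a and Ube2c at levels like those of Progenitor.1, whereas Lgr5 is highest in Progenitor.1 in all 4 libraries. Secretory-Reg4-Ang4 is not shown.

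Mesenchymal, tuft and immune markers left few molecules in these sums, while absorptive and secretory markers left more. The 14 mesenchymal markers summed to 17.2, 14.7, 5.06 and 6.63 CPM, 8 tuft cell markers to at most 0.548 CPM (0 UMIs in Tnfr2-/- TNF) and 8 immune markers to 0.493 to 1.69 CPM. The 10 enteroendocrine markers summed to 46.5, 28.9, 6.23 and 95.2 CPM, highest in Tnfr2-/- TNF. The 12 goblet and deep secretory markers summed to 1548, 1621, 1043 and 2039 CPM. The 12 absorptive markers summed to 1594, 1120, 670 and 595 CPM, lower in both Tnfr2-/- libraries. The 9 epithelial markers gave 11154, 10840, 10225 and 7977 CPM, and Epcam, an adhesion protein of epithelia, had a UMI in every Progenitor.1 cell of the thinned data described below.

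Known motifs were looked up in the promoters of the mitotic genes, and not every member held them. Many such genes carry a CHR, the cell cycle homology region through which the DREAM and MuvB complexes hold them off until G2, and CCAAT boxes bound by the factor NF-Y. In the 250 bases before the RefSeq start (GRCm38.p6), the CHR letters TTTGAA or TTCGAA, on either strand, lay in 23 of the 48 G2 and mitosis genes with a window (47.9%) and in 19.5% of all 27018 genes. CCAAT, on either strand, lay in 37 of the 48 (77.1%) and in 37.5% of all genes. Among 37 S phase genes 7 held the CHR letters (18.9%), 24 held CCAAT (64.9%), and 6 held the E2F letters TTTGGCGC or TTTCGCGC (16.2%, against 0.759% of all genes). Of 11 Wnt and stem cell genes with a window, 0 held the CHR letters and 1 held the TCF letters CTTTGAA or CTTTGAT (9.09%, against 8.63% of all genes). The TCF and CHR letters overlap in CTTTGAA. The 120 bases before the start of the 4 cycle markers are shown because their arrangement differs, with the CHR and CCAAT letters in capitals, 5′ to 3′ on the gene's strand.
Top2a (chr11:99024190-99024309, minus): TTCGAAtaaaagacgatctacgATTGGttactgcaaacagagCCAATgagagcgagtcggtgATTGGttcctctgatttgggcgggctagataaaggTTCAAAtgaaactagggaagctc
Ube2c (chr2:164769809-164769928, plus): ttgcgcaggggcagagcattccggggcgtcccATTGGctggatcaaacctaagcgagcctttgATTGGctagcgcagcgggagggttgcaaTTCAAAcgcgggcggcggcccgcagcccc
Mki67 (chr7:135716380-135716499, minus): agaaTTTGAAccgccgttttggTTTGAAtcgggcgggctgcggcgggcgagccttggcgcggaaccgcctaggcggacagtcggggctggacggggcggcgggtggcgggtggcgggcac
Cenpf (chr1:189688087-189688206, minus): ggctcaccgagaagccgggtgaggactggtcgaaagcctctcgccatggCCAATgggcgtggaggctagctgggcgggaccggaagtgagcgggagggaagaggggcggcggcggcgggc
Top2a held 3 CCAAT boxes and 2 CHR matches, Ube2c held 2 CCAAT boxes and 1 CHR match, Mki67 held 2 CHR matches and no CCAAT in this stretch, and Cenpf held 1 CCAAT and no CHR match. A match of letters is a description of the sequence and not a measured binding site.

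Cell by cell, the class mixed cells with and without detected Top2a or Mki67, in similar proportions in all 4 libraries. A cell without them may still be cycling, because detection varied with depth. Each cell was thinned at random to 20000 UMIs so that depth could not set the counts, which left out 49, 23, 53 and 7 shallower cells. A UMI of Top2a or Mki67 was found in 62.4% (58.0 to 66.6), 56.7% (51.0 to 62.3), 62.3% (58.3 to 66.2) and 64.8% (53.9 to 74.7) of Progenitor.1 cells. These 4 intervals overlap one another. Without thinning the shares were 70.5%, 70.7%, 71.9% and 70.5%. In Progenitor.2 the thinned shares were 8.70%, 17.1%, 8.38% and 10.5%. Progenitor.3 was not below Progenitor.1, with 76.9% of 13 cells, 84.2% of 19 and 62.5% of 8 outside Tnfr2-/- TNF. Thinned to 5000 UMIs, its shares there were 57.1%, 52.7% and 36.7%, against 42.7%, 43.9% and 46.1% in Progenitor.1. The background in absorptive cells, which have left the cycle, was 12.8% in untreated wildtype, with median depths before thinning of 40871 UMIs there and 43626 in Progenitor.1.

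A whole list of S phase genes and another of G2 and mitosis genes were counted in each cell. Limits were taken from the 95th percentile of the absorptive cells of untreated wildtype, 11 UMIs for the S list and 49.8 for the G2 and mitosis list. In Progenitor.1 the share of cells above the S limit was 72.8% (68.7 to 76.7), 70.8% (65.4 to 75.8), 77.6% (74.0 to 80.9) and 81.8% (72.2 to 89.2). Cells above the G2 and mitosis limit made up 44.5% (40.0 to 49.0), 37.2% (31.8 to 42.8), 46.8% (42.7 to 50.9) and 46.6% (35.9 to 57.5). Most of the latter, 213 of 221, 111 of 116, 274 of 278 and 41 of 41 cells, were also above the S limit. These limits therefore do not separate S phase from G2 and mitosis. Cells above neither limit made up 25.6% (21.8 to 29.6), 27.6% (22.7 to 32.9), 21.7% (18.5 to 25.3) and 18.2% (10.8 to 27.8). The upper quartile of G2 and mitosis UMIs per cell was 116, 134.75, 145.75 and 179, and the median was 37, 28, 41 and 38. The upper quartile was higher in both Tnfr2-/- libraries than in both wildtype ones, and so were the medians, by less.

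**Figure D2:**
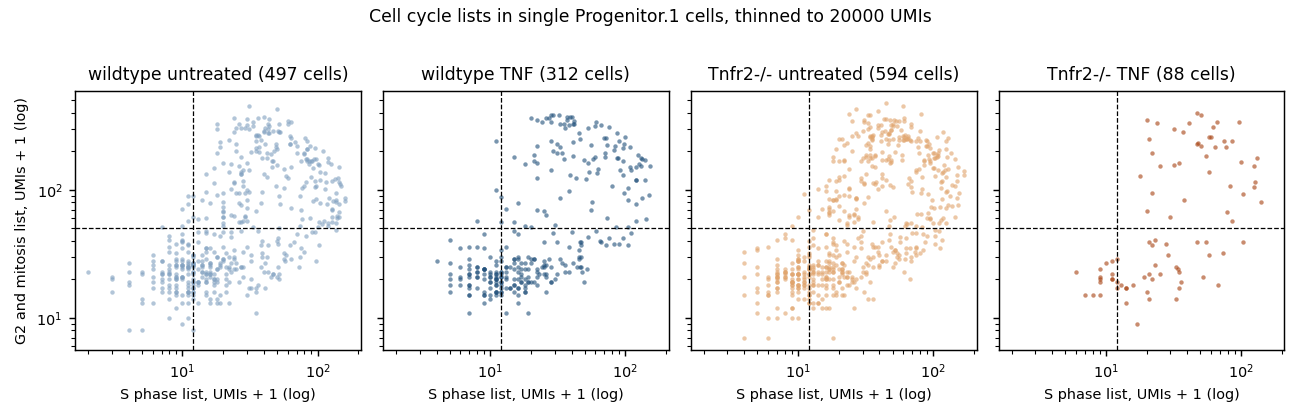
UMIs of the S phase list (horizontal, log axis, plus 1) and of the G2 and mitosis list (vertical, log axis, plus 1) in single Progenitor.1 cells thinned to 20000 UMIs, with 497, 312, 594 and 88 cells per panel. Dashed lines mark the limits of 11 and 49.8 UMIs. In each library the cells form a cloud at the lower left and an arc toward higher counts of both lists.

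The stem cell genes differed more between libraries. Lgr5 (chromosome 10, 115450311 to 115587780, minus strand) had 42.7 CPM (40.3 to 45.2), 65.9 (62.3 to 69.8), 68.0 (65.3 to 70.7) and 121 (111 to 130), lowest in untreated wildtype and highest in Tnfr2-/- TNF. Wildtype TNF and untreated Tnfr2-/- did not differ beyond their counting intervals. A UMI of Lgr5 was found in 36.8% (32.6 to 41.2), 49.7% (44.0 to 55.4), 57.2% (53.1 to 61.3) and 78.4% (68.4 to 86.5) of thinned cells. In mesenchymal cells, which served as the background, the share was at most 1.79%. Smoc2 gave 46.1%, 60.6%, 59.4% and 73.9%. Ascl2, a transcription factor of intestinal stem cells, gave 23.5%, 37.8%, 42.1% and 52.3%, and its levels were 18.3, 34.3, 35.1 and 47.8 CPM. Axin2, a feedback inhibitor and standard readout of Wnt signalling, gave 52.5%, 51.6%, 66.0% and 78.4%, at 43.6, 51.4, 73.5 and 97.5 CPM. Axin2 was also common in mesenchymal cells, at 21.7% to 59.0%, so its share is no clean mark of stem cells here.

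**Figure D3:**
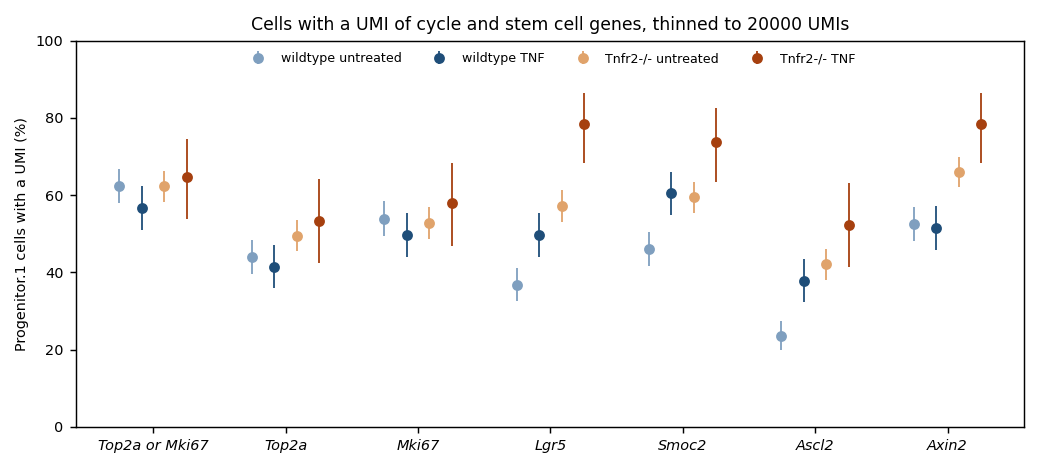
Share of Progenitor.1 cells with at least 1 UMI (vertical axis, percent) after thinning to 20000 UMIs, with exact binomial intervals, for 2 cycle genes alone and together and for 4 stem cell genes. The 4 libraries lie within 56.7% to 64.8% for Top2a or Mki67 but run from 36.8% to 78.4% for Lgr5.

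Thinned to 20000 UMIs, cells with Lgr5 more often had Top2a or Mki67 in each of the 4 libraries. In untreated wildtype 66.7% (59.3 to 73.4) of 183 cells with a UMI of Lgr5 also had Top2a or Mki67, against 59.9% (54.2 to 65.3) of 314 cells without it. In wildtype TNF the shares were 63.2% (55.1 to 70.8) and 50.3% (42.2 to 58.4). In untreated Tnfr2-/- they were 64.1% and 59.8%, and in Tnfr2-/- TNF 68.1% of 69 cells and 52.6% of 19 cells. The intervals overlapped within each library. With thinning to 5000 UMIs the untreated Tnfr2-/- pair turned to 45.9% and 46.2%. Median S list UMIs were 29, 27, 29 and 33 in cells with Lgr5 and 19, 15, 21 and 22 in cells without it. Median UMIs of the other Wnt and stem cell genes were 34, 45, 37 and 49 against 19, 31, 29 and 33.

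Against the other classes, Lgr5 was the gene that stood out most. Since these cells were clustered on their genes, the comparison is a description. In each library Progenitor.1 was set against the highest other epithelial class with at least 20 cells, among 5, 5, 3 and 2 classes. Of 5016 genes at 20 CPM or more in Progenitor.1 of every library, 174 were highest in Progenitor.1 each time (3.47%). Lgr5 alone was at least 2-fold above every other class in all 4 libraries (0.0199% of genes), by 1.21, 1.35, 1.17 and 1.59 on the scale of log2(CPM + 1) used for all differences. Mki67 came next, with 1.04, 0.76, 2.52 and 4.68. Cftr, the chloride channel of crypt cells, was above by 0.72, 1.42, 1.82 and 2.05, with 55.4, 72.6, 23.1 and 20.7 CPM. Foxq1, a forkhead transcription factor, was above by 0.87, 0.69, 0.83 and 0.82. Cldn2, a tight junction protein that forms cation pores in crypts, was above by 0.90, 0.58, 1.45 and 2.36. Heatr1 and Taf1d, which serve ribosomal RNA transcription, the nuclear lamina receptor Lbr, the transcription factor Nfib and Cp, which encodes the copper carrier ceruloplasmin, completed the leading 10. Of the listed genes that reached the level in every library, 13 of 46 ribosome biogenesis genes were highest in Progenitor.1, as were 8 of 44 G2 and mitosis genes, 3 of 11 Wnt and stem cell genes and 1 of 32 S phase genes. In the other direction, 48.7% of the 5016 genes were lower in Progenitor.1 than in another class in every library. Of the lists, this held for 13 of 14 regenerative genes, 12 of 13 dissociation stress genes, 7 of 7 MHC class I genes, 7 of 10 TNF receptors and adaptors and 6 of 8 epithelial genes.

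Progenitor.2 was the least alike of the progenitor classes. Of 5598 genes, 468 (8.36%) were at least 2-fold higher in Progenitor.1 in all 4 libraries and 365 (6.52%) lower. Hist1h1b led the higher genes. Hist1h1b, a linker histone made in S phase, had 271, 260, 284 and 200 CPM in Progenitor.1 and 0, 4.65, 4.34 and 2.19 CPM in Progenitor.2. Pclaf, a partner of the replication clamp, and Ccna2, the S and G2 cyclin, followed. Those lower were led by Saa1, an acute phase protein with 6.62, 0.767, 7.08 and 8.39 CPM in Progenitor.1 and 671, 533, 366 and 383 CPM in Progenitor.2. The ribosome biogenesis list summed to 8305, 7330, 8752 and 7522 CPM in Progenitor.1 and 2719, 2406, 3296 and 2961 CPM in Progenitor.2. The regenerative list, which holds fetal-like and injury genes such as Ly6a and Clu, summed to 11316, 9217, 10726 and 6857 CPM in Progenitor.1 and 52634, 30574, 33524 and 23955 CPM in Progenitor.2. Ribosomal protein genes gave 26.7% to 29.1% of the UMIs of the median Progenitor.1 cell and 6.84% to 18.3% in Progenitor.2.

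Progenitor.3 was close to Progenitor.1, with correlations over genes of 0.901 to 0.956 within libraries, against 0.735 to 0.783 for Progenitor.2. Genes are not independent, and the classes share library and chemistry. Of 5221 genes compared in 3 libraries, 196 (3.75%) were at least 2-fold higher in Progenitor.1 in each and 0 at least 2-fold lower in each. The S phase list summed to 1854, 2163 and 2382 CPM in Progenitor.3 and 1878, 1806 and 2028 CPM in Progenitor.1. For G2 and mitosis the sums were 4686.5, 6809 and 4371 CPM in Progenitor.3 and 4505, 4458 and 5197.5 CPM in Progenitor.1. Progenitor.3 cells were shallow, and 82 of 95, 129 of 148 and 43 of 51 of them held fewer than 20000 UMIs. The higher genes were led by Ctgf, a target of the growth regulator YAP, with 57.2, 28.6 and 37.5 CPM in Progenitor.1 and 3.41, 1.17 and 0 CPM in Progenitor.3. The basal keratin Krt14, the surface protein Msln and the nuclear RNA Neat1 came next. In Progenitor.1 of these 3 libraries the 5% of cells with most Krt14 held 92.9%, 86.5% and 96.4% of its UMIs. Neat1 stood at 117, 395 and 494 CPM in Progenitor.1 and 21.8, 38.0 and 18.9 CPM in Progenitor.3. Against Secretory-Reg4-Spdef-Lyz1, 126 of 5448 genes were higher (2.31%) and 162 lower (2.97%) in 3 libraries.

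Progenitor.1 made up very different parts of the 4 cultures. Untreated, it held 48.4% (45.5 to 51.4) of epithelial cells in wildtype and 63.2% (60.2 to 66.2) in Tnfr2-/-. With TNF it held 28.8% (26.2 to 31.5) and 11.1% (9.05 to 13.4). By molecules it made up 54.9%, 44.2%, 72.5% and 12.9% of the epithelial UMIs. The share was lower with TNF in both genotypes, and the genotype difference turned from higher in untreated Tnfr2-/- to lower in Tnfr2-/- TNF. Of these, the wildtype TNF share was the one most changed by other choices. It was 36.5% without the Secretory-Reg4-Ang4 class, which had 246 cells there and 0 in the other libraries, and 41.6% among cells with at least 10000 UMIs. Despite the unequal numbers, the Progenitor.1 sums were much alike, with correlations of 0.922 to 0.966 over 6259 genes between libraries.

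Few genes separated the genotypes in Progenitor.1. A gene was counted where Tnfr2-/- and wildtype differed at least 2-fold in the same direction both untreated and with TNF, with at least 20 CPM in a library of each pair. Of 5720 genes, 21 rose (0.367%) and 37 fell (0.647%) in Tnfr2-/-. Single pairs gave 50 higher and 50 lower genes untreated and 57 higher and 93 lower with TNF. Where a gene has 2 changes, the first is without TNF and the second with it. The median gene differed by 0.05 and -0.05.

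Abcc2 (chromosome 19, 43782192 to 43840740, plus strand), an organic anion exporter, had 3.15 (2.52 to 3.88), 6.24 (5.15 to 7.50), 24.8 (23.2 to 26.5) and 44.3 (38.7 to 50.4) CPM, and rose by 2.64 and 2.64. Both Tnfr2-/- libraries lay above both wildtype ones. Igfbp4, which binds insulin-like growth factors, stood at 5.25, 4.27, 34.4 and 34.1 CPM. Mmp7, the metalloprotease matrilysin, stood at 54.2, 50.8, 166 and 275 CPM and rose by 1.59 and 2.42, and its share of thinned cells went from 22.1% and 26.6% in wildtype to 57.9% and 64.8%. Tnfrsf11b, which encodes osteoprotegerin, a decoy receptor of the TNF family, stood at 43.9, 52.2, 145 and 157 CPM and rose by 1.70 and 1.57. Gm42047, a predicted gene on chromosome 8, stood at 11.2, 21.9, 95.9 and 138 CPM and was found in 14.5%, 18.6%, 68.7% and 84.1% of thinned cells. Cdk5rap1, a mitochondrial tRNA modifier, rose by 1.96 and 2.03, Slfn2, a Schlafen family gene, by 1.79 and 1.59, the adhesion protein gene Jaml by 1.45 and 2.11, and Igsf23 by 1.63 and 1.35. Neat1 rose by 2.07 and 1.38, from 117 and 395 CPM to 494 and 1031 CPM. Psat1, an enzyme of serine synthesis, rose by 1.06 and 1.97, the 1 call among 27 tested genes of serine, one-carbon and nucleotide synthesis. Chromosome 19 held 4 of the 21 genes (19%), namely Abcc2, Neat1, Psat1 and Ms4a10, but 4.27% of the genes tested. Its 244 tested genes had medians 0.42 and 0.52 above the median of all genes, and the 466 of chromosome 2 had 0.24 and 0.31. The part of these shifts in the differences of single genes was not tested.

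Xist stood at 670 and 830 CPM in wildtype and 0.0817 and 0 CPM in Tnfr2-/-, where 3 UMIs would have made 0.585 CPM in the TNF library. The shares of cells with Xist are given above. Tstd1, a sulfur transferase, stood at 114, 105, 3.19 and 1.37 CPM a change of -4.78 and -5.49. Muc3, a membrane mucin of absorptive cells, stood at 226, 115, 24.8 and 8.19 CPM, and its share of thinned cells went from 60.8% and 56.4% to 20.2% and 9.09%. Adh1, an alcohol dehydrogenase, stood at 34.5, 153, 3.21 and 6.63 CPM. Car9, a carbonic anhydrase of the cell surface, stood at 27.8, 36.6, 4 and 3.71 CPM. B3galt5, a glycan-building enzyme, stood at 44.9, 54.5, 11.2 and 5.07 CPM. Gm5485 fell by 3.44 and 3.08 and 2610528A11Rik by 3.43 and 2.07. The secreted phosphoprotein Spp1 and the keratin Krt14 also fell, by 2.50 and 3.58 and by 2.00 and 3.16, and are described with TNF. Cftr, which is among the leading genes of the class, was 1 of the 37.

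Progenitor.2 of the same libraries gives a second set of cells for the same genes. There Muc3 differed by -2.82 and -2.78 and Tstd1 by -3.88 and -5.61, while Gm5485 differed by -0.31 and -2.17 and Adh1 by -0.60 and -2.22. Krt14 differed by -0.23 and -0.85. In the untreated pair 2610528A11Rik and Spp1 turned the other way in Progenitor.2, with 1.81 and -1.22 for the former and 1.54 and -1.47 for the latter. The untreated wildtype Progenitor.2 sum rests on 62 cells. The cultures are the same, so this is no replicate.

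TNF also moved few genes in both genotypes. Of 5598 genes, 16 rose (0.286%) and 16 fell (0.286%) at least 2-fold in wildtype and in Tnfr2-/-. In single pairs, wildtype had 85 higher and 26 lower genes and Tnfr2-/- had 45 higher and 37 lower. Of a gene's 2 changes the first is wildtype and the second Tnfr2-/-. The median gene differed by 0.04 and -0.04, and these contrasts use the same 4 libraries as the genotype contrasts.

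By the smaller of its 2 changes, the gene with the largest rise was Nos2 (chromosome 11, 78920787 to 78960254, plus strand), the inducible nitric oxide synthase. Its 24, 1504, 498 and 325 UMIs made 0.869 (0.556 to 1.29) and 82.4 (78.2 to 86.6) CPM in wildtype, then 13.6 (12.4 to 14.8) and 63.4 (56.7 to 70.7) CPM in Tnfr2-/-. Its change was 5.48 and 2.14, and untreated Tnfr2-/- was already above untreated wildtype. It was found in 1.21%, 58.0%, 14.1% and 38.6% of thinned Progenitor.1 cells, and in 0.106%, 10.1%, 18.0% and 49.1% of mesenchymal cells. Ccl20, a chemokine that draws CCR6-bearing lymphocytes, stood at 8.43, 106, 32.6 and 98.7 CPM and rose by 3.50 and 1.57. The 5% of cells with most Ccl20 held 86.3%, 41.1%, 57.9% and 63.6% of its UMIs. This share was smaller with TNF in wildtype and larger with TNF in Tnfr2-/-. Nox1, the colonic NADPH oxidase that makes superoxide, stood at 40.0, 226, 56.1 and 134 CPM and was found in 40.6%, 88.1%, 41.6% and 77.3% of thinned cells. Cp stood at 24.2, 188, 46.0 and 179 CPM, but 93.8% to 100% of mesenchymal cells also held it. Aqp4, a water channel, rose to nearly equal levels, at 28.5, 112, 23 and 111 CPM. Guca2b, which encodes uroguanylin, stood at 14.0, 111, 7.02 and 28.5 CPM, lower in Tnfr2-/- at either treatment. The lactate exporter Slc16a3 rose by 2.13 and 2.48, the tight junction gene Cldn14 by 2.63 and 1.42, Cd177 by 1.84 and 1.72, and the adhesion molecule Ceacam10 by 1.23 and 2.34.

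Of the 16 genes that fell, 4 were interferon targets. Ifit1, an antiviral sensor of foreign RNA, had 625, 34, 2280 and 19 UMIs and stood at 22.6, 1.86, 62.1 and 3.71 CPM. Isg15, a ubiquitin-like interferon product, stood at 58.6, 13.3, 153 and 13.3 CPM. Irf7, a transcription factor of the interferon response, changed by -1.25 and -3.09, and the chemokine gene Cxcl10 by -1.27 and -2.07. Spp1 stood at 205, 27.3, 35.4 and 1.37 CPM, Krt14 at 169, 27.1, 41.4 and 2.15 CPM and the keratin Krt6a at 79.7, 5.64, 113 and 19.3 CPM. Clu, the chaperone clusterin that marks revival stem cells, stood at 499, 115, 312 and 97.3 CPM and fell by 2.11 and 1.67. Cyp2c55, a cytochrome P450, fell by 2.17 and 2.16, Cdkn2a, an inhibitor of the cell cycle, by 1.72 and 1.45, Cwh43 by 1.66 and 1.35 and the prostaglandin-degrading enzyme gene Hpgd by 1.39 and 1.29. Some of these came from few cells. In untreated wildtype the 5% of cells with most UMIs of the gene held 92.9% of those of Krt14, 88.6% of Ifit1 and 67.3% of Spp1, against 46.4% of Clu and 26.4% of Hpgd.

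**Figure D4:**
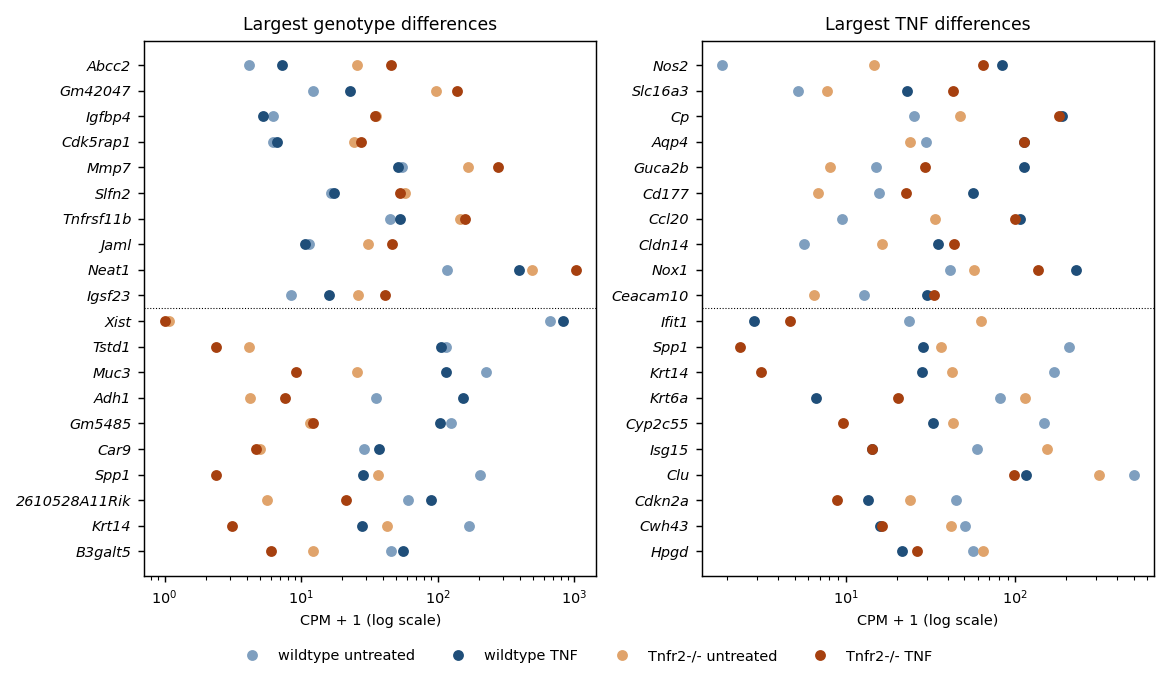
CPM plus 1 (log axis) of the 10 genes that rose most and the 10 that fell most with genotype (left) and with TNF (right), 1 point per library, with rises above the dotted line. Both Tnfr2-/- points lie on one side of both wildtype points for most genes on the left, and Nos2 at right runs from 0.869 to 82.4 CPM.

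Known NF-kB targets were mostly higher with TNF. Of 16 tested TNF and NF-kB targets, 2 rose in both genotypes, Nos2 and Ccl20, against the 0.286% of all genes. Nos2 passed the minimum only through the TNF libraries, and so did Ccl20 in wildtype, so this count is no support for the list. Over all 26 members the difference was above 0 in both genotypes for 19 and below for 1, against 33.0% and 32.9% of the genes tested, and the medians were 1.16 in wildtype and 0.36 in Tnfr2-/-, a gap that was not tested. Nfkbia, the inhibitor that ends NF-kB signals, stood at 239, 512, 243 and 365 CPM, a difference of 1.10 and 0.59. Tnfaip3, the deubiquitinase A20, stood at 18.6, 44.7, 23.1 and 43.7 CPM, and Birc3, an inhibitor of apoptosis that binds TNF receptor complexes, at 8.18, 21.1, 10.5 and 12.1 CPM. The chemokine gene Cxcl2 stood at 51.8, 137, 50.3 and 34.9 CPM and Cxcl16 at 36.9, 114, 72.3 and 96.3 CPM. Cxcl1 stood at 21.5, 60.2, 6.64 and 0.39 CPM, so that it was 1 of the 37 genes that fell with genotype, while Cxcl5, at 11, 14.9, 24.5 and 55.6 CPM, was 1 of the 21 that rose. Dissociation stress genes had no calls, and their median difference with TNF was 0.64 in wildtype and -0.32 in Tnfr2-/-, and their sums were 3132, 4608, 3925 and 2735 CPM. Their part in the NF-kB values was not tested.

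In the 250 bases before the start, 9 of 19 TNF and NF-kB targets with a window (47.4%) held a 10-base NF-kB motif on either strand, against 3.25% of all genes. The 120 bases of a target that rose and of 2 that feed back on NF-kB are shown with the motif in capitals.
Ccl20 (chr1:83116646-83116765, plus): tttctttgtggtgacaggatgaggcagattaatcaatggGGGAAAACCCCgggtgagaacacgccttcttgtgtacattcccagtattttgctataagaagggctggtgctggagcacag
Nfkbia (chr12:55492648-55492767, minus): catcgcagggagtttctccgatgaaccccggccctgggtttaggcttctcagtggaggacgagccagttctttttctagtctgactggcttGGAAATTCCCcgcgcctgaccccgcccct
Tnfaip3 (chr10:19015411-19015530, minus): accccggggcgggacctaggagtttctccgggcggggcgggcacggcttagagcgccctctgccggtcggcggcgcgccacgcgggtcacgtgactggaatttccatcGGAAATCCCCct
In Ccl20 2 matches overlap by all but a base, so the capitals run on. The RefSeq table has another start of Tnfaip3 with no match in its stretch.

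Lists hold members below 20 CPM, which can pass the minimum only where they are high, so directions are given over every member. Of the genes tested, 33.0% were above 0 and 32.9% below 0 in both genotypes with TNF. Of 17 Wnt and stem cell genes, 13 were above 0 and 0 below in both genotypes with TNF, with medians of 0.39 and 0.39 and 0 calls. Slc12a2, an ion transporter of crypt base cells, stood at 596, 1029.6, 924 and 1264 CPM, and Lrig1, a brake on growth factor receptors, at 28.1, 53.8, 32.9 and 45.2 CPM. Lgr5 differed by 0.61 and 0.82 and Smoc2 by 0.39 and 0.64. Ribosome biogenesis leaned the other way, with 39 of 51 genes below 0 in both genotypes, medians of -0.14 and -0.21 and 0 calls. Npm1, the nucleolar chaperone, stood at 3126, 2583, 2966 and 2553 CPM. Of 22 interferon targets, 20 were below 0 in both genotypes and 1 above, with medians of -0.97 and -1.99. The 4 called interferon genes are set against 0.286% of all genes, and some passed the minimum only through the untreated libraries. Of 18 regenerative genes 11 were below 0 in both, with medians of -0.31 and -0.50, and Clu, Ly6d and Msln fell. Ly6a, a surface protein of regenerating epithelium, stood at 1219, 816, 968 and 593 CPM. MHC class I had medians of 0.58 and -0.42 over all 15 genes, and of 0.41 and -0.09 over the 8 tested. S phase, at -0.05 and 0.07 over all 50 genes, and G2 and mitosis, at 0.03 and 0.18 over all 56, had 0 calls.

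With genotype, 34.8% of the genes tested were above 0 in both pairs. Of 56 G2 and mitosis genes 47 were, with medians of 0.20 and 0.35 and 0 calls. Ube2c differed by 0.59 and 1.53, Top2a by 0.56 and 0.65, Cenpf by 0.30 and 0.24 and Mki67 by 0.20 and -0.003. Ube2c, Nusap1, Aurka and Bub1 are among the members on chromosome 2. Its tested genes had medians 0.24 and 0.31 above that of all genes, and the part of this shift was not tested. Of 17 Wnt and stem cell genes 10 were above 0 in both pairs, with medians of 0.31 and 0.26. The S phase medians were 0.14 and 0.22 over all 50 genes, and 0.07 and 0.18 over the 35 tested. Among these Hells, a chromatin remodeler of S phase, stood at 62.3, 61.2, 105 and 107 CPM. Cyclins, CDK inhibitors and Myc had medians of 0.13 and 0.05 over all 21 genes, and of -0.15 and 0.05 over the 13 tested. Ccnd2, the cyclin D2 gene, stood at 536, 397, 341 and 262 CPM, and Ccnd1 at 280, 172, 253 and 178 CPM. Cdkn1a, the cell cycle inhibitor p21, stayed at 178 to 220 CPM and Myc at 36 to 48 CPM. Over all 12 absorptive genes the medians were -0.70 and -0.01. The 4 tested ones had medians of -1.33 and -0.79, and Muc3 was the 1 call.

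**Figure D5:**
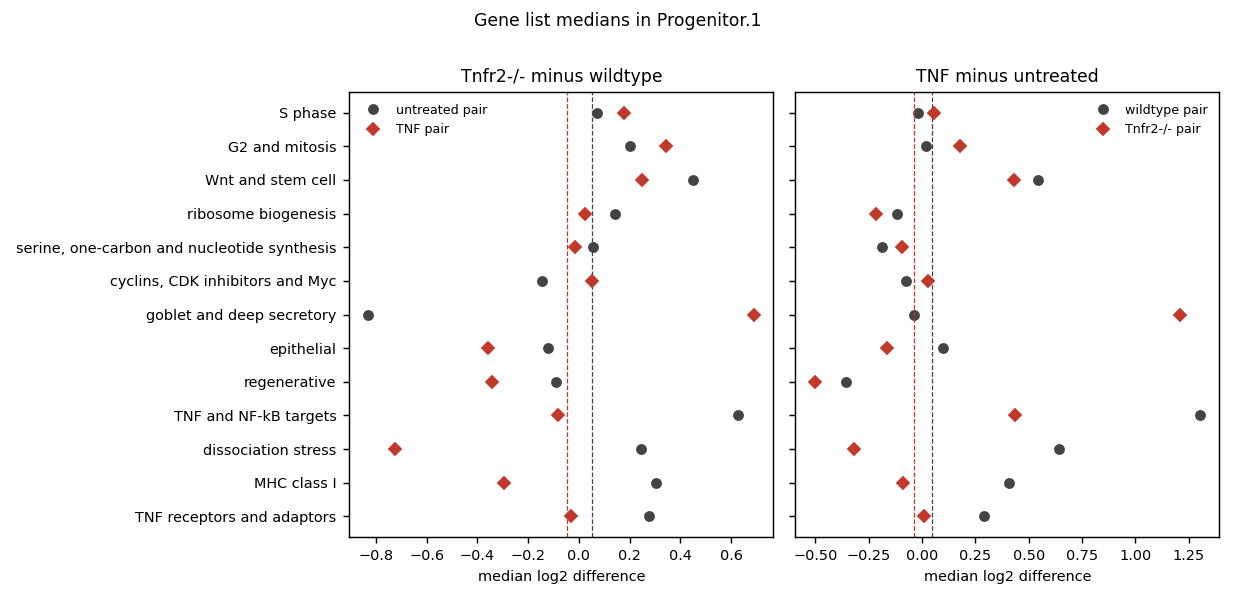
Median log2 difference of each gene list in Progenitor.1 for Tnfr2-/- minus wildtype (left, untreated and TNF pairs) and TNF minus untreated (right, wildtype and Tnfr2-/- pairs), for lists with at least 5 tested genes, with dashed lines at the medians of all genes. Over these tested genes the Wnt and stem cell medians are above the dashed lines in all 4 pairs, and the TNF and NF-kB median with TNF is 1.30 in wildtype and 0.43 in Tnfr2-/-. Some of these targets reached 20 CPM only with TNF, which favors a higher median. Over all 26 members the medians were 1.16 and 0.36.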

How the data were processed

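The deposited matrix holds whole-number UMI counts per gene and cell, which the authors made with Cell Ranger 5.0.0 on mm10, per the submitters' processing notes. Per the paper, the authors removed cells under 100 UMIs and doublets of epithelial with mesenchymal cells, and clustered with monocle3. Classes, genotype and treatment came from the deposited cell table. Its plotting coordinates and size factors, a deposited score per cell, were not used. Positions came from GENCODE M21 (GRCm38) and missed 43 of 30360 genes. Of the genes, 67 share a symbol with another, and none of these is named.

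For each class and library, the UMIs of all its cells were added up per gene and expressed as CPM of that sum. Differences are log2(CPM + 1), which understates changes of low genes. With 1 library per group no test was made. Where a count was 0, the limit is 3 counts. PCR duplicates are removed by UMIs, and intervals do not include how cultures or mice vary. Shares of cells used each cell thinned to 20000 UMIs. Doublets were called with scrublet at an expected rate of 0.06 (47 cells, 0.764%). The authors had removed doublets of the kind given above before deposit. The counting was tested on simulated sums. Python 3.11.15, numpy 2.4.6, scipy 1.17.1, pandas 2.3.3 and scanpy 1.11.5 were used.

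Genes were named by rule: 20 fixed genes, the 10 leading genes of the class, the 10 largest rises and falls for genotype and TNF by the smaller of the pair differences, 3 genes from either extreme of the genotype difference in TNF effect, and up to 4 members of each list with the highest mean CPM. Other genes named were called members of a list, leading genes against Progenitor.2 or Progenitor.3, or, for Lrig1, picked once its values were known. The members, lists and rules were chosen with earlier results of these data known. Alternatives were pseudocounts of 0.1 and 10 CPM, TMM and median-of-ratios scaling, no expression minimum, means over cells, and restricted sets of cells, genes or classes.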

Additional observations from a re-analysis of the deposited data

Results flagged for a closer look

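Among the genes named by rule, and not among all genes, those with a pair of effects in opposite directions were singled out here. Each effect had to reach at least 0.5 on the log2 scale, with counting intervals that did not overlap. Lyz1, Car1, Sval1, Ifitm3 and Atf3 had been named for lying at the extremes of the genotype difference in TNF effect. That choice favors opposite directions, so these are not the outcome of a search of all genes. With 1 library per group the difference was not tested for any of these genes. With TNF, Lyz1, the lysozyme of deep secretory cells, differed by -2.12 in wildtype and 0.90 in Tnfr2-/-. The 5% of Progenitor.1 cells with most Lyz1 held 93.7% to 99% of its UMIs in each library. Ifitm3, an interferon-induced membrane protein, differed with TNF by 0.86 in wildtype and -1.76 in Tnfr2-/-, and with genotype by 1.00 untreated and -1.62 with TNF. Atf3, a stress-induced transcription factor, differed with TNF by 1.08 and -1.33, and with genotype by 0.80 and -1.62. Both are spread over more cells, with 17.5% to 43.6% of UMIs in the top 5%. Atf3 belongs to the dissociation stress list, whose medians with TNF were 0.64 and -0.32. Car1, a carbonic anhydrase of absorptive cells, differed with genotype by -1.77 untreated and 1.18 with TNF. Sval1, seminal vesicle antigen-like 1, differed with genotype by -1.62 and 0.98. The top 5% of cells held 62.7% to 94.4% of Car1 UMIs and 84.2% to 96.1% of Sval1 UMIs.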

How the results depend on the processing

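No paired analysis was possible because each group had 1 library. With a pseudocount of 10 CPM the genotype counts were 12 higher and 22 lower and the TNF counts 10 and 10, all among the genes called before. With no expression minimum they were 71 and 181, and 50 and 45. The other settings kept these counts within 1.5 times, including wildtype cells with Xist and no Y-linked UMI. For single named genes 106 recomputed values moved and 2090 did not. Lgr5, the 1 gene 2-fold above every class, gave way to 0 genes with a minimum of 50 CPM, with classes of at least 10 cells or with a pseudocount of 10 CPM, and the count highest in Progenitor.1 was 82 with 50 CPM. Among cells with at least 10000 UMIs, Progenitor.1 was 52.4%, 41.6% and 66.6% of epithelial cells in wildtype untreated, wildtype TNF and untreated Tnfr2-/-, and 36.5% in wildtype TNF without the Ang4 class. Thinned to 5000 UMIs, Top2a or Mki67 was found in 42.7%, 43.9%, 46.1% and 46.8% of cells and Lgr5 in 19.6%, 27.5%, 28.4% and 52.1%. Without thinning the shares were 70.5%, 70.7%, 71.9% and 70.5%, and 48.5%, 62.4%, 72.6% and 88.4%. The share of cells with Top2a or Mki67 was also compared with minus without Lgr5. In untreated Tnfr2-/- this difference was -0.30 points at 5000 UMIs and 11.1 points without thinning, and its cause was not tested. The Tnfr2-/- TNF library, with 95 Progenitor.1 cells, is the least precise.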

Other observations

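Several secretory genes of Progenitor.1 were highest in Tnfr2-/- TNF. Tff3, a trefoil peptide of goblet cells, stood at 304, 347, 374 and 991 CPM, with wildtype before Tnfr2-/- and untreated before TNF. Spink4 stood at 322, 314, 134 and 507 CPM and Fcgbp, a mucus-binding protein, at 39.8, 28.0, 36.4 and 132 CPM. Over all 12 goblet and deep secretory genes the medians with TNF were -0.02 in wildtype and 0.70 in Tnfr2-/-. Over the 7 tested they were -0.04 and 1.21. Ang4, an antimicrobial ribonuclease, was the 1 called, at 4.74, 65.5, 16.6 and 39.8 CPM, against 0.286% of all genes. It reached 20 CPM only with TNF, so neither this call nor the medians over the 7 tested genes are support for the list. In the median Progenitor.1 cell the list had 10, 14.5, 6 and 5 UMIs, and at the 95th percentile 56.2, 76.2, 78.4 and 221. Agr2, which folds mucins, ran the other way, at 687, 789, 386 and 209 CPM. The enteroendocrine genes Pyy and Chgb stood at 7.02, 12.1, 1.39 and 54.4 CPM and at 19.9, 10.3, 0.599 and 22.4 CPM.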
